A study of Mus musculus with 8 samples.

Results

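Mature microRNAs (miRNAs) were compared between 2 sorted subsets of splenic CD8+ T cells of the mouse, MP and TN, over both genotypes of the study. All 8 libraries of the series enter: 4 of MP cells against 4 of TN cells, each side holding 2 libraries labelled WT and 2 labelled mCre. The sample titles give only these names. TN is a common short form for true naive, and the series' design text has VM, often short for virtual memory, in place of MP. WT cells are named without a strain, and mCre cells without the Cre driver or the deleted sequence, although the series title ties the Cre to miR-29. Ages are not given per sample, since the protocol covers adult and neonatal spleens in one text. All 4 groups share the sort on CD8, CD4, CD44 and CD122 and the lysis of 10000 sorted cells per preparation. Nothing in the labels ties the 2 libraries of a group to separate mice, so the p-values reflect only how these libraries vary, in part perhaps for technical reasons.

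A miRNA is cut from a hairpin whose arms each give a mature strand, named 5p and 3p, and it pairs with target mRNAs mainly through its seed, bases 2 to 8 from the 5′ end. miRNAs with one seed form a family with overlapping targets, and hairpins that lie close together on a chromosome are often cut from a single primary transcript. In T cells miR-181a tunes the strength of antigen receptor signalling and is abundant in the thymus, miR-146a restrains NF-kB signalling after activation, and CD44 and CD122, a receptor chain for IL-2 and IL-15, mark memory-phenotype CD8+ cells.

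The sequences below are those on which the comparison turned, with the seed in capitals. They are mature sequences from RefSeq (GRCm38.p6), which held one for 290 of the 382 miRNAs tested. The first set holds miRNAs that were higher in MP.
miR-146a-5p: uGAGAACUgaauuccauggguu
miR-21a-5p: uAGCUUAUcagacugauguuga
miR-30a-3p: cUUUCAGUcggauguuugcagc
miR-30c-2-3p: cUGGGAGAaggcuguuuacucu

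The second set holds miRNAs that were lower in MP, with the relatives that share their seeds. miR-181a-5p and miR-181b-5p share ACAUUCA, and miR-211-5p and miR-204-5p share UCCCUUU, while the 3p strands of the miR-181a hairpins have different seeds.
miR-181a-5p: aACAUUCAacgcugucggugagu
miR-181b-5p: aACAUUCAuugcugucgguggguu
miR-181a-1-3p: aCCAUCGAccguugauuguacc
miR-181a-2-3p: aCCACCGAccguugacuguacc
miR-211-5p: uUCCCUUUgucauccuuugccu
miR-204-5p: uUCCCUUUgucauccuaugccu

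The third set comes from a cluster of hairpins on chromosome X that is described by position. No seed occurs more than once among them.
miR-322-3p: aAACAUGAagcgcugcaacac
miR-503-5p: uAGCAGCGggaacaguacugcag
miR-542-3p: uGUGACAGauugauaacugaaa
miR-450a-5p: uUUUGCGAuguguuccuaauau
miR-450b-5p: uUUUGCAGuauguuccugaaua
miR-450b-3p: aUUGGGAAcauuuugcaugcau

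The libraries held 1936600 to 5230975 counts, and 382 miRNAs had enough counts to be tested. Levels are given as CPM, counts scaled to a common library total adjusted by edgeR's TMM factors (0.8385 to 1.235). Their order is WT replicate 1, WT replicate 2, mCre replicate 1, mCre replicate 2. Shares of the counts in percent use the unadjusted totals. Changes are log2 fold changes of MP against TN, and adjusted p-values are from edgeR's quasi-likelihood F test over all 382 miRNAs. The standard error (SE) of a change was derived as its absolute size divided by the square root of F. It is therefore approximate, above all for scarce miRNAs. In these bulk samples, a lower share of cells that hold a miRNA and less of it per cell cannot be told apart. On the first principal component (51.7% of the variance) 3 libraries stood apart, at 11.0 to 24.8 against -19.8 to -4.00 for the other 5. They were the library labelled WT TN replicate 2 and both mCre MP libraries, and they also had the largest share of let-7 guide strands (59.5% to 68.7% against 42.6% to 51.2%) and the fewest miRNAs above 0 (416 to 514 against 532 to 648). The part of this split in the results was not tested beyond the values without these libraries given below. On the second component (16.7%) the 4 TN libraries, at -14.3 to 0.12, did not overlap the 4 MP libraries, at 3.23 to 11.3.

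miR-29a-3p, the main form of the miRNA named in the series title, was set against the genotype labels. In TN it was at 2751 and 802 CPM in the libraries labelled WT and at 1409.8 and 15394 in those labelled mCre. The library labelled mCre was thus the lower one in replicate 1 and the higher one in replicate 2. In MP it was at 3105 and 11659 CPM in WT and 833 and 1498 in mCre. The deleted sequence is not named, so the level that the labels call for is not known. If mCre cells hold less miR-29a-3p, TN replicate 2 went against its labels. Both genotypes stand on each side of the MP against TN comparison, and its values without both TN replicate 2 libraries are given beside the calls.

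In all, 9 of the 382 miRNAs passed an adjusted p of 0.05 (2.36%), 5 higher in MP (1.31%) and 4 lower (1.05%). For 43 miRNAs (11.3%) the ranges of the MP and TN libraries did not overlap, with MP above in 26 (6.81%) and below in 17 (4.45%), and the 9 were among these 43. Of the 382, 30 met the count filter through MP alone and 34 through TN alone. The filter in part fixed the side of these, and they are counted in all these shares. Over all 382 miRNAs, 189 changes were above 0 and 193 below, with a median of -0.04. Scaling by the median ratio (RLE) in place of TMM moved this median to -0.15 and the split of calls to 4 higher and 6 lower, and scaling by total count moved it to -0.23 and the split to 4 and 5.

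**Figure D1:**
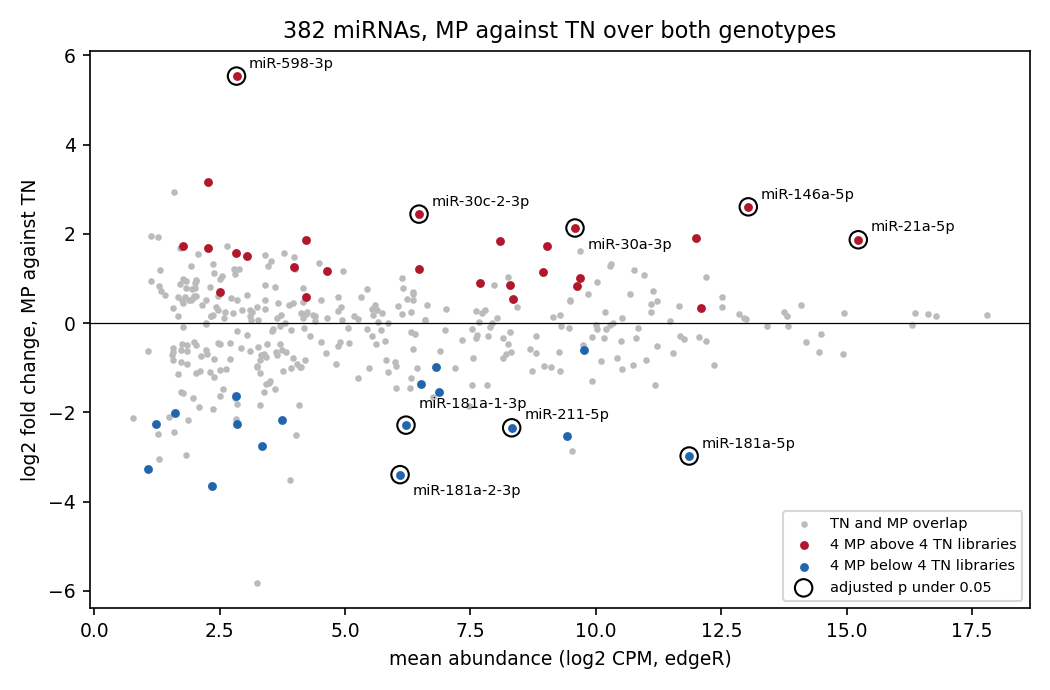
Log2 fold change of MP against TN (y axis, above 0 is higher in MP) against mean log2 CPM (x axis), 1 point per miRNA tested. The 9 miRNAs past the adjusted threshold are spread over the abundance range, from miR-598-3p at low CPM to miR-21a-5p at high CPM.

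The 2 abundant miRNAs that rose are both known from T cell activation. miR-146a-5p, the feedback inhibitor of NF-kB signalling, was at 1793, 2127, 2018 and 3687 CPM in TN and at 11761, 17141, 14746 and 13988 in MP. The lowest MP library was thus above the highest TN library, and the change was 2.61 ± 0.37 (SE, edgeR adjusted p = 0.0137). miR-21a-5p, which is induced in activated lymphocytes and limits several growth inhibitors, was at 18148, 9531, 21126 and 17946 CPM in TN and at 70436, 55817, 42250.4 and 72098 in MP. Again no library overlapped, and the change was 1.87 ± 0.36 (SE, edgeR adjusted p = 0.0392).

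A pair of 3p strands of the miR-30 family also rose. miR-30a-3p was at 217, 368, 266 and 289 CPM in TN and at 1190.0, 1279, 1313 and 1213 in MP. Its 4 MP libraries were close together and all above TN, with a change of 2.13 ± 0.37 (SE, edgeR adjusted p = 0.0303). miR-30c-2-3p was at 23.6, 49.6, 18.9 and 20.1 CPM in TN and at 106, 128, 203 and 157 in MP, without overlap, a change of 2.44 ± 0.48 (SE, edgeR adjusted p = 0.0392). Their hairpins are neighbours on chromosome 1 (GRCm38), Mir30a at 23272269 to 23272339 and Mir30c-2 at 23291701 to 23291784. The other 4 tested 3p strands of the family, from hairpins elsewhere, had changes above 0 that did not pass, between 0.06 for miR-30e-3p and 0.38 for miR-30c-1-3p. The opposite strand of the Mir30a hairpin, miR-30a-5p, was at 1778, 283, 386 and 526 CPM in TN and at 2031, 2454, 1377 and 1229 in MP. These overlapped through WT TN replicate 1, and the change of 1.32 ± 0.56 did not pass (SE, edgeR adjusted p = 0.362).

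miR-598-3p, whose hairpin lies in an intron of Xkr6 on chromosome 14 (63727189 to 63727267), was nearly absent from TN. The TN libraries held 0, 0, 3 and 1 counts of it and the MP libraries 48, 67, 25 and 18. Every MP library was above every TN library. It met the count filter through the MP libraries alone. The fitted change of 5.54 ± 0.95 (SE, edgeR adjusted p = 0.0303) rests on those 4 TN counts, so its size is poorly fixed.

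The miR-181 strands made up 3 of the 4 miRNAs that fell. miR-181a-5p was at 4679.8, 3517, 4578 and 13770.2 CPM in TN and at 634, 1229, 435 and 864 in MP. The highest MP library was under the lowest TN library, and the library labelled mCre TN replicate 2 was far above the other TN libraries. The change was -2.98 ± 0.61 (SE, edgeR adjusted p = 0.0423). miR-181a-5p comes from hairpins on chromosomes 1 and 2, and the 3p strands tell these apart. miR-181a-1-3p, of the chromosome 1 hairpin (137966455 to 137966541), was at 71.5, 63.7, 149 and 214 CPM in TN and at 25.4, 20.7, 28.6 and 15.97 in MP, a change of -2.29 ± 0.46 (SE, edgeR adjusted p = 0.0409). miR-181a-2-3p, of the chromosome 2 hairpin (38852735 to 38852810), was at 69.9, 171, 132 and 123 CPM in TN and at 7.84, 12.5, 13.8 and 13.2 in MP, a change of -3.40 ± 0.43 (SE, edgeR adjusted p = 0.01102). The 3p strands of both hairpins were thus lower in MP without overlap, while miR-181a-5p cannot be assigned to either hairpin. miR-181b-5p, which shares the seed of miR-181a-5p, had 844, 544, 937 and 2409 CPM in TN and 146, 283, 104 and 217 in MP, also without overlap, but its change of -2.54 ± 0.61 did not pass (SE, edgeR adjusted p = 0.0769).

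The third pair of hairpins of the family, Mir181c and Mir181d on chromosome 8, gave other values. The fitted change was -1.40 ± 2.16 for miR-181c-5p and, for miR-181d-5p, -0.64 ± 0.56, and both overlapped between the subsets (SE, edgeR adjusted p = 0.835 and 0.740). Of 10 listed strands of the family 9 could be tested, and 8 of these had changes under 0, with a median of -2.29 against -0.04 over all miRNAs. Among the 8, miR-181b-1-3p met the count filter through TN alone. The strand above 0, miR-181d-3p, met it through MP alone, so the filter in part fixed the side of both. The family took 0.427% to 1.88% of the counts in TN libraries and 0.0794% to 0.235% in MP libraries, with no overlap.

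miR-211-5p was the fourth miRNA that fell. It is best known from pigment cells, and its hairpin lies in an intron of Trpm1 on chromosome 7 (64205806 to 64205911). It was at 382, 859.8, 471 and 426 CPM in TN and at 98.4, 122, 69.4 and 126 in MP. No MP library reached the TN range, and the change was -2.35 ± 0.43 (SE, edgeR adjusted p = 0.0332). miR-204-5p, its relative with the same seed, was scarce, at 5.36, 2.25, 4.15 and 1.04 CPM in TN and at 0, 0.55, 1.06 and 0 in MP, and its change of -3.04 ± 1.16 did not pass (SE, edgeR adjusted p = 0.314). This relative met the count filter through the TN libraries alone, which in part fixed its lower values in MP.

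**Figure D2:**
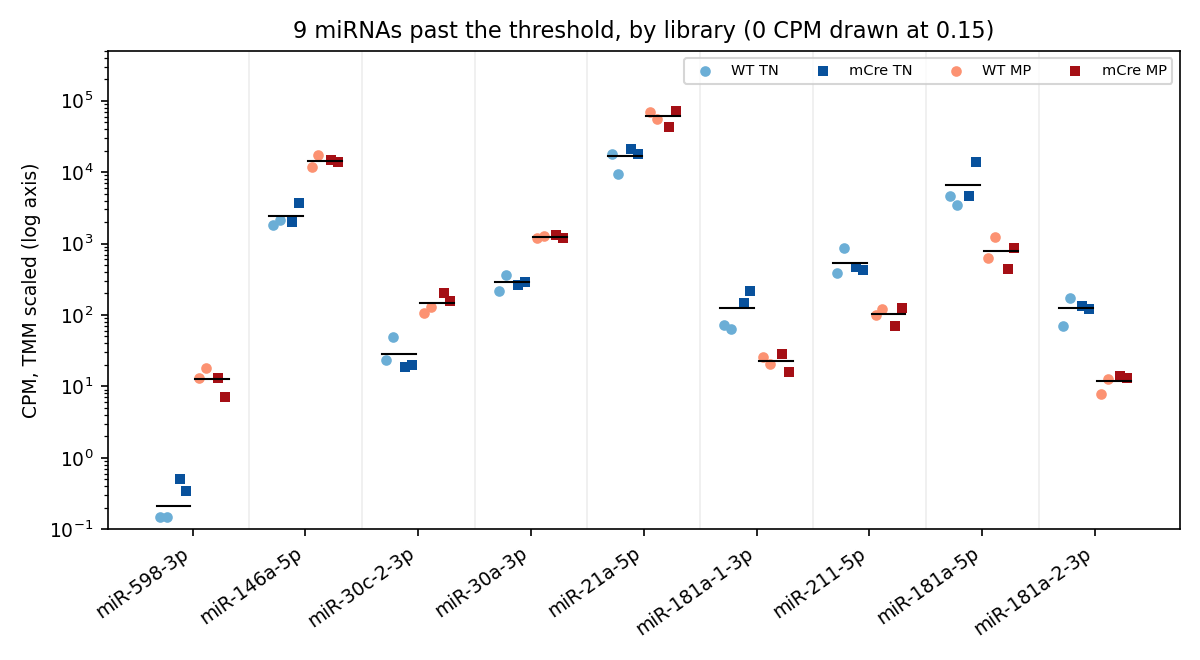
CPM on a log scale (y axis) of the 9 miRNAs past the adjusted threshold, 1 point per library and a bar at the mean of 4 libraries, TN beside MP. In each of the 9 the MP points lie wholly above or wholly below the TN points.

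The number of calls depended on which libraries were used. Without any 1 of the 4 MP libraries it was 0 in edgeR, with the smallest adjusted p between 0.0538 and 0.0699 and 35 to 39 miRNAs at an unadjusted p under 0.05. Leaving out replicate 1 of WT TN or of mCre TN gave 1 call. Leaving out the library labelled mCre TN replicate 2 gave 6, and leaving out the one labelled WT TN replicate 2 gave 48. With both TN replicate 2 libraries left out there were 44, all 9 included. Without the 3 libraries that stood apart, no mCre MP library remained. With genotype as covariate, that fit compared both WT MP libraries with WT TN replicate 1 alone, so no count of calls is given. Its changes for miR-146a-5p and miR-181a-2-3p were 2.93 and -2.85. DESeq2 called 26 on the 8 libraries, all 9 included. The sign of each of the 9 changes was the same in all alternatives that gave a value. The lack of overlap in each of the 9 largely fixes this, so it adds no support.

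Low values in MP also came from a cluster on chromosome X, between 53047997 and 53054349 on the minus strand (GRCm38). It holds the hairpins Mir322, Mir503, Mir351, Mir542, Mir450-2, Mir450-1 and Mir450b and overlaps no other gene in GENCODE M21. miR-322 and miR-503 are known for slowing the cell cycle in differentiating cells, in part by repressing Cdc25a. All 8 tested miRNAs of the cluster had fitted changes under 0, 5 of them without overlap, against 4.45% of all miRNAs with MP below TN, and none passed in edgeR. Except for miR-322-3p, 7 of the 8 met the count filter through the TN libraries alone, which in part fixed their lower values in MP. The cluster was also picked out after its values were seen, so its counts are a description and support nothing further.

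Summed over the tested members, the cluster held 161, 49.0, 125 and 86.7 CPM in TN and 11.4, 11.2, 6.36 and 23.8 in MP, or 106 ± 48.5 against 13.2 ± 7.44 (SD, n = 4 each). The highest MP library had less than the lowest TN library, the one labelled WT TN replicate 2. That library was also the lowest TN library for miR-351-5p, at 19.0, 9.58, 12.8 and 25.0 CPM in TN and 1.08, 3.27, 2.12 and 3.12 in MP. miR-351-5p, an analogue of the miR-125 family, missed the threshold with a fitted change of -2.76 ± 0.62 (SE, edgeR adjusted p = 0.0602).

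miR-503-5p, related to the miR-15/16 family, was at 10.4, 5.63, 13.8 and 13.5 CPM in TN and 1.62, 1.91, 4.24 and 1.17 in MP, a change of -2.26 ± 0.62 (SE, edgeR adjusted p = 0.123). miR-322-3p was at 21.7, 16.9, 25.9 and 19.1 CPM in TN and 4.86, 4.36, 0 and 8.96 in MP, a change of -2.17 ± 0.86 (SE, edgeR adjusted p = 0.316). Neither overlapped between the subsets. The same held for miR-450b-3p, with 29, 4, 52 and 42 counts in TN and 2, 3, 0 and 2 in MP, and for miR-450b-5p, with 11, 4, 11 and 11 counts against 2, 0, 0 and 1.

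The other 3 tested members overlapped. miR-542-3p had 211, 0, 32 and 19 counts in TN and 2, 0, 0 and 1 in MP, so that a single TN library held most of its 262 TN counts. miR-450a-5p had 147, 13, 329 and 8 counts in TN and 7, 3, 0 and 18 in MP, and miR-503-3p 14, 9, 14 and 4 against 1, 0, 0 and 5. The 5 strands of the cluster under the count filter were not tested, and each was at 0 in all 4 MP libraries. Among them miR-322-5p had 38 counts over the TN libraries, miR-542-5p 13, miR-450a-1-3p 9, miR-450a-2-3p 6 and miR-351-3p 1. All 6 counts of miR-450a-2-3p came from mCre TN replicate 1, and miR-322-5p had 20, 0, 17 and 1 counts in the TN libraries. Without the 3 libraries that stood apart, the changes of miR-351-5p, miR-503-5p and miR-322-3p were -3.20, -2.61 and -2.29. These values compare both WT MP libraries with WT TN replicate 1 alone.

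**Figure D3:**
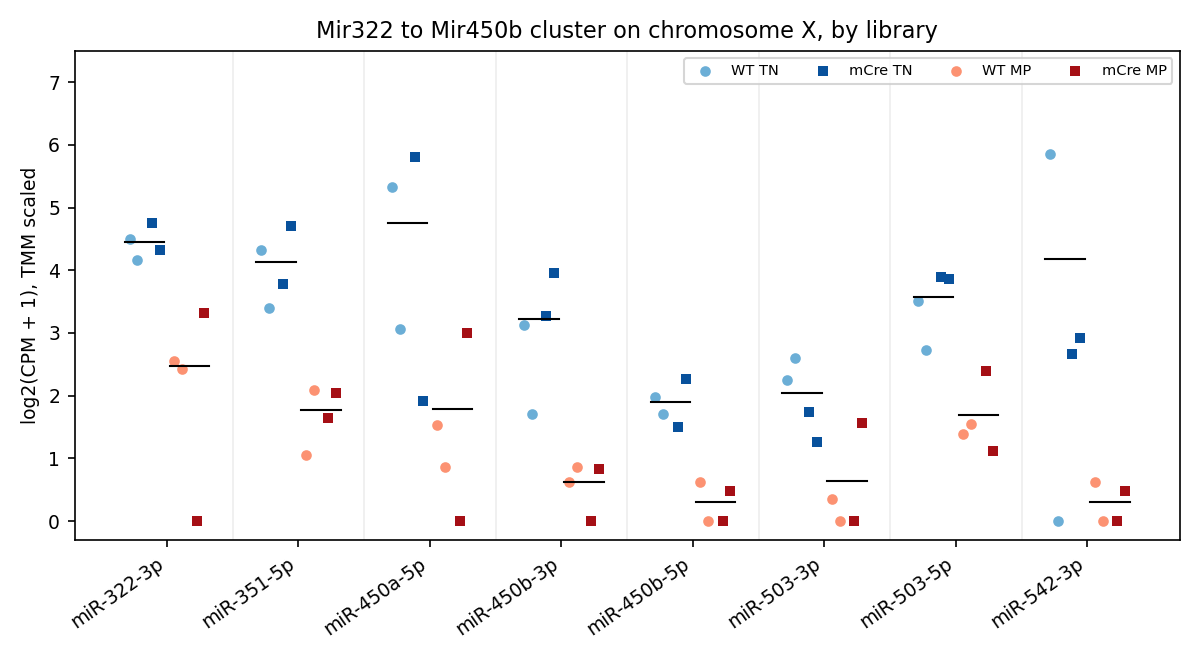
Levels of the 8 tested miRNAs of the chromosome X cluster as log2(CPM + 1) on the y axis, 1 point per library, with a bar at the log2 of the mean CPM of 4 libraries plus 1. TN and MP are separate for 5 of the 8 miRNAs, and miR-542-3p, miR-450a-5p and miR-503-3p overlap.

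Seed families pool the reads of near-identical members. Counts were summed over 235 seeds. The 92 tested miRNAs without a RefSeq sequence could not be pooled and each stayed a unit of its own, also where the name points to a family, as for miR-99b-5p and miR-181c-5p. Of these 327 units 10 passed (3.06%), 3 higher and 7 lower in MP. The miR-181a/b/d-5p family (seed ACAUUCA) held 8848 ± 5785 CPM in TN libraries and 1380.2 ± 579 CPM in MP libraries (SD, n = 4 each), a change of -2.62 ± 0.57 (SE, edgeR adjusted p = 0.0445 over the 327 units). The miR-204/211 family (seed UCCCUUU) changed by -2.49 ± 0.44 (SE, edgeR adjusted p = 0.0204), and the miR-146a/b family (seed GAGAACU) by 2.33 ± 0.37 (SE, edgeR adjusted p = 0.020004). The other 7 that passed were single miRNAs. Of these, miR-21a-5p, miR-450b-3p and both 3p strands of the miR-181a hairpins had a seed with no other tested member, while miR-598-3p, miR-99b-5p and miR-351-5p were single for want of a sequence. miR-99b-5p, miR-351-5p and miR-450b-3p passed among the 327 units and not among the 382 miRNAs. Among the 7 single miRNAs, miR-351-5p and miR-450b-3p met the count filter through TN alone and miR-598-3p through MP alone. The filter thus in part fixed the side of these. miR-30a-3p and miR-30c-2-3p did not pass once pooled with seed relatives: the fitted change was 0.27 for the family of miR-30a-3p and miR-30e-3p and 1.21 for that of both miR-30c 3p strands (edgeR adjusted p = 0.241). The count of calls was 0 with WT MP replicate 1 or mCre MP replicate 2 left out (30 and 33 units at an unadjusted p under 0.05 in edgeR), and 1 when replicate 1 of WT TN, of mCre TN or of mCre MP, or replicate 2 of WT MP, was left out. Leaving out the library labelled mCre TN replicate 2 gave 4 calls, and leaving out the one labelled WT TN replicate 2 gave 42.

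Other clusters of hairpins had members on one side. Of all 29 clusters with 3 or more tested miRNAs, 9 had only changes under 0 and 4 only changes above 0. The 3 guide strands of the miR-183 cluster on chromosome 6 (30165918 to 30169737), which responds to cytokine signals in lymphocytes and represses Foxo1, all had MP libraries above TN libraries. Among all miRNAs tested, 6.81% had MP above TN without overlap. miR-182-5p was at 333, 255, 189.8 and 198 CPM in TN and at 621, 864, 728 and 958 in MP, a change of 1.73 ± 0.39 (SE, edgeR adjusted p = 0.0602). miR-183-5p was at 144, 167, 82.3 and 87.7 CPM in TN and at 243, 400.5, 602 and 442 in MP, a change of 1.83 ± 0.47 (SE, edgeR adjusted p = 0.0935). miR-96-5p was scarcer, at 2.08 to 5.63 CPM in TN and 6.89 to 15.7 in MP. None of the 3 passed, and the other strands of the cluster had at most 3 counts over the 8 libraries. Summed, the tested members held 275 to 482 CPM in TN and 880.3 to 1408.5 in MP.

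On chromosome 17 (17830188 to 17830879), the cluster of Mir99b, Mirlet7e and Mir125a, known from blood stem cells, held 498, 854, 564 and 503.1 CPM in TN and 225, 280.2, 520.2 and 476 in MP when its tested members were summed. These sums overlapped, while 2 of its 3 members lay below TN in MP, against 4.45% of all miRNAs. miR-99b-5p was at 129, 186, 218 and 164 CPM in TN and at 56.8, 70.1, 47.1 and 65.5 in MP, a change of -1.54 ± 0.36 (SE, edgeR adjusted p = 0.0693). miR-125a-5p was at 115, 185, 82.6 and 146 CPM in TN and at 44.1, 66.0, 40.3 and 52.6 in MP, a change of -1.37 ± 0.38 (SE, edgeR adjusted p = 0.123). Neither overlapped and neither passed among the 382, while let-7e-5p from between them had a value of -0.33 with overlap. All 5 tested members of the miR-99/100 and miR-125 families had changes under 0 (193 of 382 over all miRNAs), with a median of -1.37 against -0.04 over all miRNAs.

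The cluster of Mir200a, Mir200b and Mir429 on chromosome 4, best known for keeping epithelial cells epithelial by repressing Zeb1 and Zeb2, had changes above 0 for all 5 tested strands (189 of 382 over all miRNAs). miR-200a-3p was at 383, 446, 278 and 162 CPM in TN and at 696, 682, 595 and 712 in MP, without overlap, a change of 1.15 ± 0.39 (SE, edgeR adjusted p = 0.258). miR-200b-5p, with 11.2 to 19.2 CPM in TN and 27.8 to 44.8 in MP, also had no overlap. These were 2 of the 5 strands, against 6.81% of all miRNAs with MP above TN. Of the related cluster elsewhere, miR-200c-3p had a fitted change of -0.29 and miR-141-3p of -0.57, both with overlap. Among the other epithelial markers miR-205-5p had too few counts to be tested. The epithelial list as a whole took 0.0725% to 0.254% of the counts in TN and 0.149% to 0.306% in MP, which overlapped. Its part in the result was not tested.

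**Figure D4:**
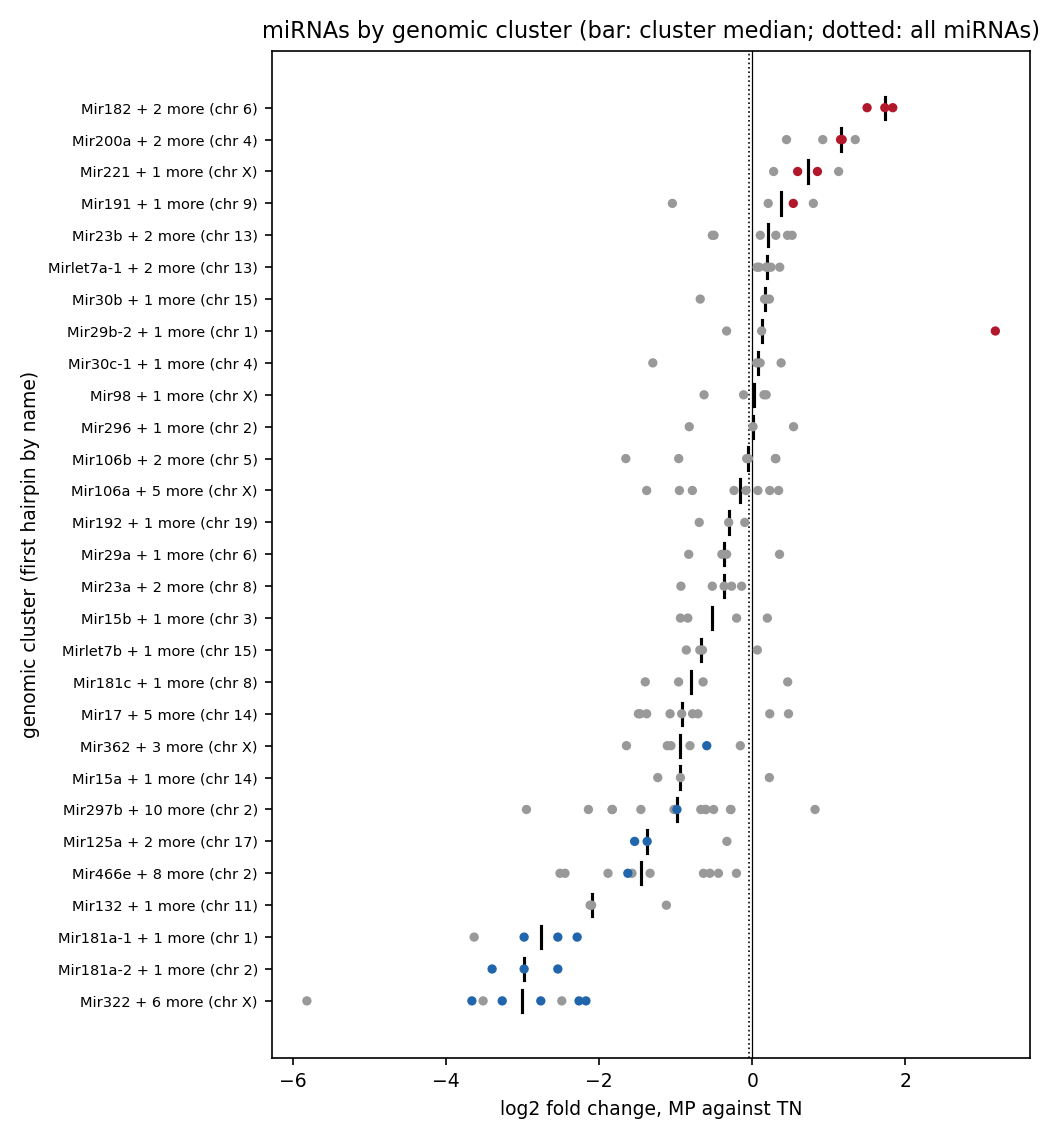
Log2 fold change of MP against TN (x axis) of each tested miRNA in the genomic clusters of 3 or more tested miRNAs, 1 row per cluster, with points coloured by whether the MP libraries lay above, below or overlapped the TN libraries. The 3 points of the miR-183 cluster lie between 1.499 and 1.83. Most members of the chromosome X cluster of Mir322, between -5.81 and -2.17, met the count filter through TN alone.

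Of the miRNAs listed for T cell activation, 7 could be tested, 6 had changes above 0 (189 of 382 over all miRNAs), and 2 passed as higher, miR-21a-5p and miR-146a-5p (1.31% of all miRNAs). The median was 0.85 against -0.04 over all miRNAs, and the list took 1.16% to 2.84% of the counts in TN and 5.18% to 9.57% in MP. Over all libraries miR-21a-5p had 993755 counts and miR-146a-5p 203379, against 33334 for miR-155-5p, the next of the list. The share thus mostly restates the 2 that passed. miR-155-5p, needed by CD8+ T cells for effector responses, was at 524, 397, 756 and 1297 CPM in TN and at 2023, 2589, 1079 and 1312 in MP. Here mCre MP replicate 1 lay under the highest TN library, and the change of 1.27 ± 0.55 did not pass (SE, edgeR adjusted p = 0.372). Its partner strand miR-155-3p was scarce and did not overlap, at 0.35 to 6.65 CPM in TN and 7.03 to 13.6 in MP, a change of 1.58 ± 0.78 (SE, edgeR adjusted p = 0.461). That strand met the count filter through MP alone, which in part fixed its higher values there. miR-222-3p, which represses the cell cycle inhibitor p27, was at 71.8 to 326 CPM in TN and 341 to 468 in MP, a change of 0.85 ± 0.49 (SE, edgeR adjusted p = 0.554). miR-132-3p was the member under 0, at -1.12 ± 0.65 (SE, edgeR adjusted p = 0.554). The 3 tested strands of its cluster with Mir212 on chromosome 11 all had changes under 0 (193 of 382 over all miRNAs), with a median of -2.10. Summed, they held 14.6 to 21.8 CPM in TN and 2.16 to 12.2 in MP, and none passed in edgeR. Of these, miR-132-5p and miR-212-5p met the count filter through TN alone, which in part fixed their lower values in MP.

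Of 8 miRNAs listed for resting lymphocytes 7 had changes under 0 (193 of 382 over all miRNAs) and none passed in edgeR. The median was -0.41 against -0.04 over all miRNAs. The list took 6.778% to 24.45% of the counts in TN and 6.075% to 17.49% in MP, which overlapped. miR-139-5p, from an intron of Pde2a on chromosome 7, was the one above 0. It was at 2058, 3769, 1508 and 337 CPM in TN and at 7521, 5926, 6491 and 4926.5 in MP, without overlap, a change of 1.92 ± 0.58 (SE, edgeR adjusted p = 0.195). miR-150-5p, a marker of mature lymphocytes, overlapped, at 49905, 46047, 87764 and 153564 CPM in TN and 83153, 104681, 43551.5 and 72692 in MP. It was thus abundant in all 8 libraries, which checks the label for lymphocytes but not for CD8+ T cells in particular.

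Single miRNAs outside these groups also lay apart without passing. miR-10a-5p, from the Hoxb gene cluster, was at 53.3, 103, 35.6 and 31.2 CPM in TN and at 109.7, 157, 106 and 107 in MP, a change of 1.22 ± 0.39 (SE, edgeR adjusted p = 0.231). miR-10b-5p, with the same seed, was at 0.54 to 2.25 CPM in TN and 2.73 to 6.49 in MP. Only the MP libraries carried miR-10b-5p past the count filter, which in part fixed its higher values there. miR-5114, whose annotated hairpin lies in an exon of Scd2, was at 4.51 to 9.64 CPM in TN and 16.5 to 45.6 in MP. miR-29c-5p, at 0 to 1.87 CPM in TN and 3.27 to 14.8 in MP, was 1 of 6 tested miR-29 strands without overlap, a share near the 11.3% of all miRNAs. It met the count filter through MP alone, and its change of 3.17 ± 1.09 did not pass (SE, edgeR adjusted p = 0.261). From the clusters in an intron of Sfmbt2 on chromosome 2, miR-669d-5p was at 9.01 to 10.2 CPM in TN and 1.06 to 4.91 in MP, and miR-467e-5p at 101 to 206 CPM against 52.4 to 97.8. These clusters hold many near-identical copies that share reads. All 10 tested miRNAs of the cluster of miR-669d-5p and 14 of 15 of that of miR-467e-5p had changes under 0 (193 of 382 over all miRNAs). Of these, miR-466m-3p, miR-467c-3p, miR-669a-3-3p, miR-669b-5p, miR-466h-5p and miR-466n-3p met the count filter through TN alone. That in part fixed their lower values in MP. Summed, the first cluster held 148 to 292 CPM in TN and 120 to 143 in MP. The second held 1226 to 7087 and 1835 to 6024 CPM, which overlapped.

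Separation without overlap was most frequent at medium abundance. It was found for 14 of 64 miRNAs with a mean of 100 to 1000 CPM (21.9%), against 9.86% under 10 CPM, 8.77% from 10 to 100 CPM and 8.06% above 1000 CPM. The median SE of the change fell from 0.92 under 10 CPM to 0.53 above 1000 CPM, so the scarce miRNAs are the least precise. let-7f-5p, let-7g-5p, let-7a-5p and miR-92a-3p, among the most abundant miRNAs, all overlapped between the subsets. let-7f-5p, for example, was at 155697, 313172, 189405 and 182044 CPM in TN and at 153810, 209455, 306338 and 310360 in MP.

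The ratio of the 5p to the 3p strand separates the use of the hairpin's arms from its level, since both strands share the hairpin. It could be computed for 88 hairpins, and 0 passed in limma (0%), with a smallest adjusted p of 0.973 and 2 at an unadjusted p under 0.05. Strands with a copy number in the name have no single partner strand and were left out. The hairpins of miR-181a-1-3p, miR-181a-2-3p and miR-30c-2-3p are thus not among the 88. No other tool was run on the ratios. Leaving out the library labelled WT TN replicate 2 gave 19 at an unadjusted p under 0.05 (smallest adjusted p = 0.1175), and leaving out both TN replicate 2 libraries gave 14 (0.132), still with 0 passing in limma. With all libraries, the 2 at an unadjusted p under 0.05 in limma were miR-1198, whose log2 ratio was higher in MP by 2.13 ± 0.76, and miR-574, by 1.896 ± 0.81 (SE). For miR-1198 the 3p strand was at 2.25 to 3.32 CPM in TN and 0 to 1.09 in MP. This strand met the count filter through TN alone, which in part fixed its lower values in MP. In 63 of the 88 hairpins the fitted changes of both strands had one sign.

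The change between subsets was also fitted in each genotype as labelled, with 2 libraries on each side. Each value draws on a TN replicate 2 library, where the order of miR-29a-3p between the genotype labels was the reverse of that in TN replicate 1 and in MP. For the 5 miRNAs called higher in MP it was above 0 in both genotypes, and for the 4 called lower it was under 0 in both, which the lack of overlap already fixes. miR-30a-3p had nearly one value, 2.08 in WT and 2.19 in mCre, and miR-181a-2-3p had -3.56 and -3.23. miR-181a-5p had -2.14 in WT and -3.82 in mCre, and miR-30c-2-3p 1.69 and 3.21. No difference between genotypes passed (0% of 382 in edgeR, smallest adjusted p = 0.300, 54 at an unadjusted p under 0.05). In DESeq2, 18 differences passed. With both TN replicate 2 libraries left out, 0 passed in edgeR (smallest adjusted p = 0.4945, 33 at an unadjusted p under 0.05). miR-155-5p had a fitted change of 2.32 in WT and of 0.22 in mCre, with an edgeR adjusted p of 0.300 for the difference. Taken alone, 0 miRNAs passed in WT (31 at an unadjusted p under 0.05) and 0 in mCre (82) in edgeR. With replicate 1 of WT TN left out, so that the library labelled WT TN replicate 2 alone stood for WT TN, 61 differences passed.

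**Figure D5:**
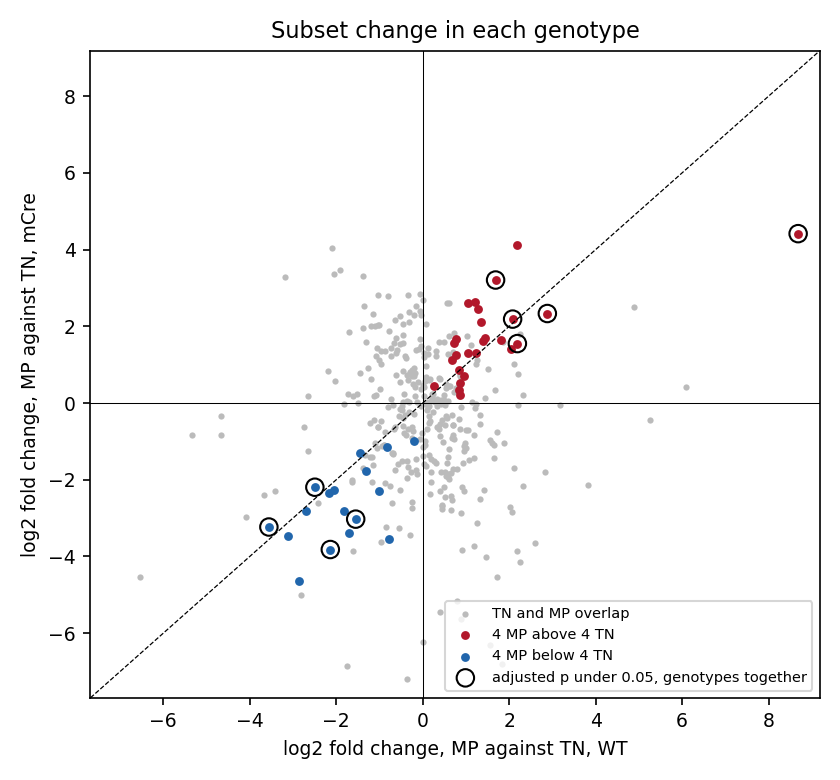
Log2 fold change of MP against TN in WT (x axis) and in mCre (y axis), 1 point per miRNA tested, with the 9 miRNAs past the threshold over both genotypes marked. All 9 marked points lie in the quadrants where both values have one sign, such as miR-181a-2-3p at -3.56 and -3.23 and miR-146a-5p at 2.88 and 2.33. The WT value of miR-598-3p depends on the prior count, since both WT TN libraries were at 0.

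Markers of other cells were low or overlapped between the subsets. Myeloid markers took 0.00069% to 0.00103% of the counts in TN and 0.00014% to 0.00137% in MP. Erythroid and platelet markers took 0.00816% to 0.0184% and 0.0149% to 0.0273%, endothelial and stromal markers 0.00222% to 0.00616% and 0.00341% to 0.0112%, and liver, muscle and neural markers 0.00226% to 0.00367% and 0.00140% to 0.00388%. None of the tested members of these 4 lists passed in edgeR or lay apart without overlap. Their part in the results was not tested.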

How the data were processed

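Small RNA of sorted CD8+ T cells was sequenced in 8 libraries from 40 to 50 ng of RNA, with inserts of 18 to 35 bases, per the labels' protocols. The authors deposited expected counts, 1 row per mature miRNA and hairpin (2128 rows, 1978 names). Per the submitters' processing notes the build was mm10. For the aligner, counter and miRNA annotation, names were not given in the sources used here. Values of names in 1 row were whole, to within 0.011, in 82.8% of cases, against 15.8% for the 85 names in several rows, so reads may be divided between rows.

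Rows of a name were summed and rounded. edgeR 4.0.16 in R 4.3.3 filtered low counts (minimum count 10, minimum total 15), scaled libraries by TMM and tested MP against TN with genotype as covariate by the robust quasi-likelihood F test, with Benjamini-Hochberg adjustment at 0.05. Counts summed by seed were tested alike, with names lacking a sequence kept single. Arm ratios, log2 of (5p + 2)/(3p + 2), were tested with limma 3.58.1. DESeq2 1.42.0, limma-voom, other scalings and filters, a replicate block and leaving out libraries were alternatives. Leave-outs kept the same 382 miRNAs. Simulated data tested the scripts.

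Clusters are hairpins on 1 strand within 10 kb of each other, by RefSeq positions or, where missing, GENCODE M21. The miRNAs named were those past the threshold, the 10 of smallest p per direction without overlap, the 10 most abundant and up to 3 per list. Those of the chromosome X cluster, miR-204-5p, miR-155-3p and miR-30a-5p, and the members of lists and clusters beyond the rule, were added after values were seen. The comparison and the lists were chosen with earlier results of these data known.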

Additional observations from a re-analysis of the deposited data

Results flagged for a closer look

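In 98 sets of 4 libraries (49 miRNAs in TN and in MP), 3 held a library far from the other 3 by Dixon's ratio on log2 CPM, and chance alone gives about 5% of sets. miR-181a-2-3p was at 7.838 CPM in WT MP replicate 1 against 12.5 to 13.8 in the other MP libraries. That library was lowest, on the side away from TN. miR-10a-5p was at 157.0 CPM in WT MP replicate 2 against 106 to 109.7 in the other MP libraries, again on the side away from TN. miR-532-5p, from a cluster of hairpins in an intron of Clcn5 on chromosome X, was at 887.4 CPM in the library labelled WT TN replicate 2 against 1077 to 1115 in the other TN libraries. It was the TN library nearest to MP, where miR-532-5p was at 446 to 865 CPM.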

How the results depend on the processing

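Against the 9 miRNAs called, there were 19 without the filter on low counts, 26 in DESeq2, 15 without the genotype covariate and 44 without both TN replicate 2 libraries, with all 9 included each time. The count was 0 to 48 without 1 library. For the 10 seed families or single names these counts were 17 without the filter, 25 in DESeq2, 43 without both TN replicate 2 libraries and 0 to 42 without 1 library. For the genotype difference (0 called), 10 passed without the filter, 18 in DESeq2 and 0 to 61 without 1 library. Arm ratios gave 0 calls in every alternative run, with 0 to 19 at an unadjusted p under 0.05. Replicate numbers are not known to pair libraries (correlations of deviations from -0.32 to 0.41). With the replicate number as a replicate block, 2 miRNAs and 3 seed families or single names passed. Fits without the 3 libraries apart on the first component, and without the genotype covariate, were chosen after seeing the data. Among the named miRNAs, direction reversed for 5 that overlapped and never passed. Without both TN replicate 2 libraries, the fitted change was 0.04958 for miR-150-5p, -0.04886 for let-7g-5p and 0.44 for miR-29a-3p. Without the 3 libraries apart, which sets both WT MP libraries against WT TN replicate 1 alone, these were 0.84, -0.0802 and 1.32. let-7g-5p was at -0.06155 with total count scaling and miR-29a-3p at 0.04215 in limma-voom. Without 1 library, the changes ranged from -0.36 to 0.19 for miR-150-5p, -0.13 to 0.48 for let-7f-5p, -0.13 to 0.28 for let-7g-5p, -0.33 to 0.80 for let-7a-5p and -1.56 to 0.94 for miR-29a-3p. The cause was not tested. Depth limits the scarce miRNAs most.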
